A study of Mus musculus with 16 samples.

Results

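The microglial genes are 9 protein-coding genes that adult mouse microglia express: the complement subunits C1qa, C1qb and C1qc, the lysosomal protease gene Ctss, the receptors Csf1r, Cx3cr1 and P2ry12, and the receptor and adaptor pair Trem2 and Tyrobp. They were chosen by name from the gene names of the abundance tables and not by a cut-off on values, but with earlier results of these data known. All 9 were found among 21627 annotated genes with rows in the tables, and they hold 163 of the 815498 isoforms listed. Over all samples they received 4115 of 9711041 gene reads, and in a single sample they took between 0.0255% and 0.0544% of the gene reads.

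Long-read RNA sequencing (PacBio Iso-seq) was performed on poly(A) RNA of the cortex and striatum of male mice at 3 months of age. R6/2 mice (B6CBA-Tg(HDexon1)62Gpb/3J), which carry a transgene with exon 1 of the human mutant HTT gene, were compared with non-transgenic (NT) mice, and each of the 4 region and genotype groups held 4 samples. The question behind the genotype comparison was how RNA differs between a mouse model of Huntington's disease and control animals. R6/2 mice model the disease through a short N-terminal huntingtin fragment, not through the full-length protein. The transgene is human and was not counted in a mouse gene table, so the genotype labels could not be checked on it.

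Microglia are the resident macrophages of the brain parenchyma. C1qA, C1qB and C1qC assemble into C1q, which starts the classical complement pathway, and microglia are its main source in the brain. CSF1R signalling keeps microglia alive, CX3CR1 receives the neuronal ligand fractalkine, P2RY12 senses purine nucleotides and guides process movement, and TREM2 binds lipids and apolipoproteins and signals through its membrane partner TYROBP (DAP12). The samples are bulk tissue, in which fewer microglia and less RNA per microglial cell cannot be told apart.

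Gene reads (reads of known isoforms, of incomplete splice matches and of unannotated isoforms of annotated genes) numbered 203081 to 700715 per cortical sample and 251925 to 1350502 per striatal sample. 4 striatal samples (NT 1, NT 2, R6/2 2 and R6/2 3) came as 2 sets of counts each, which were summed, and their 828403 to 1350502 gene reads stood above the 251925 to 672353 of the other 4. Isoforms were longer in these 4 samples (mean 2141 to 2225 nt, against 1618 to 1885 nt) and fewer of their reads were incomplete splice matches (11.95% to 13.8%, against 15.6% to 20.1%). Striatum NT 4 had the lowest depth of its region, the shortest isoforms and the most genomic class reads (12.2%). The choroid plexus list (5 genes, Ttr among them) summed to 9215 CPM in striatum NT 3 and to at most 318 CPM in the other striatal samples, and to between 6.48 and 1553 CPM in the cortex. The regional labels held on their markers. All 12 genes of a striatal projection neuron list were higher in the NT striatum than in the NT cortex, as were 11 of 12 in R6/2 mice, and 4 and 5 of 6 cortical excitatory neuron genes tested were lower. Of all genes tested, 15.8% (NT) and 12.9% (R6/2) were higher in the striatum, and 17.6% and 14.3% were lower.

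Summed over the 9 genes, the level was 356 ± 105 CPM (gene reads scaled to the TMM-normalised library of the sample; SD, n = 4) in the NT cortex, 317 ± 77.1 CPM in the R6/2 cortex, 506 ± 103 CPM in the NT striatum and 475 ± 67.6 CPM in the R6/2 striatum. The order ran from R6/2 cortex over NT cortex and R6/2 striatum to NT striatum. The genotypes of a region were neighbours in that order and differed by less than the larger of their SDs, while the step from the NT cortex to the R6/2 striatum was larger than either SD. No gene of the 9 had groups that did not overlap between R6/2 and NT mice. The genes are described below by role, with their levels in CPM, which are not comparable between genes. For 1 gene they are comparable only between samples of like libraries. Between striatal samples of 2 and of 1 count sets, the median log2 fold change was -1.58 over genes of up to 1000 nt. It was 0.30 over genes of 3000 to 4000 nt. Mean isoform length also differed between cortical and striatal samples, so the same limit holds between regions.

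**Figure D1:**
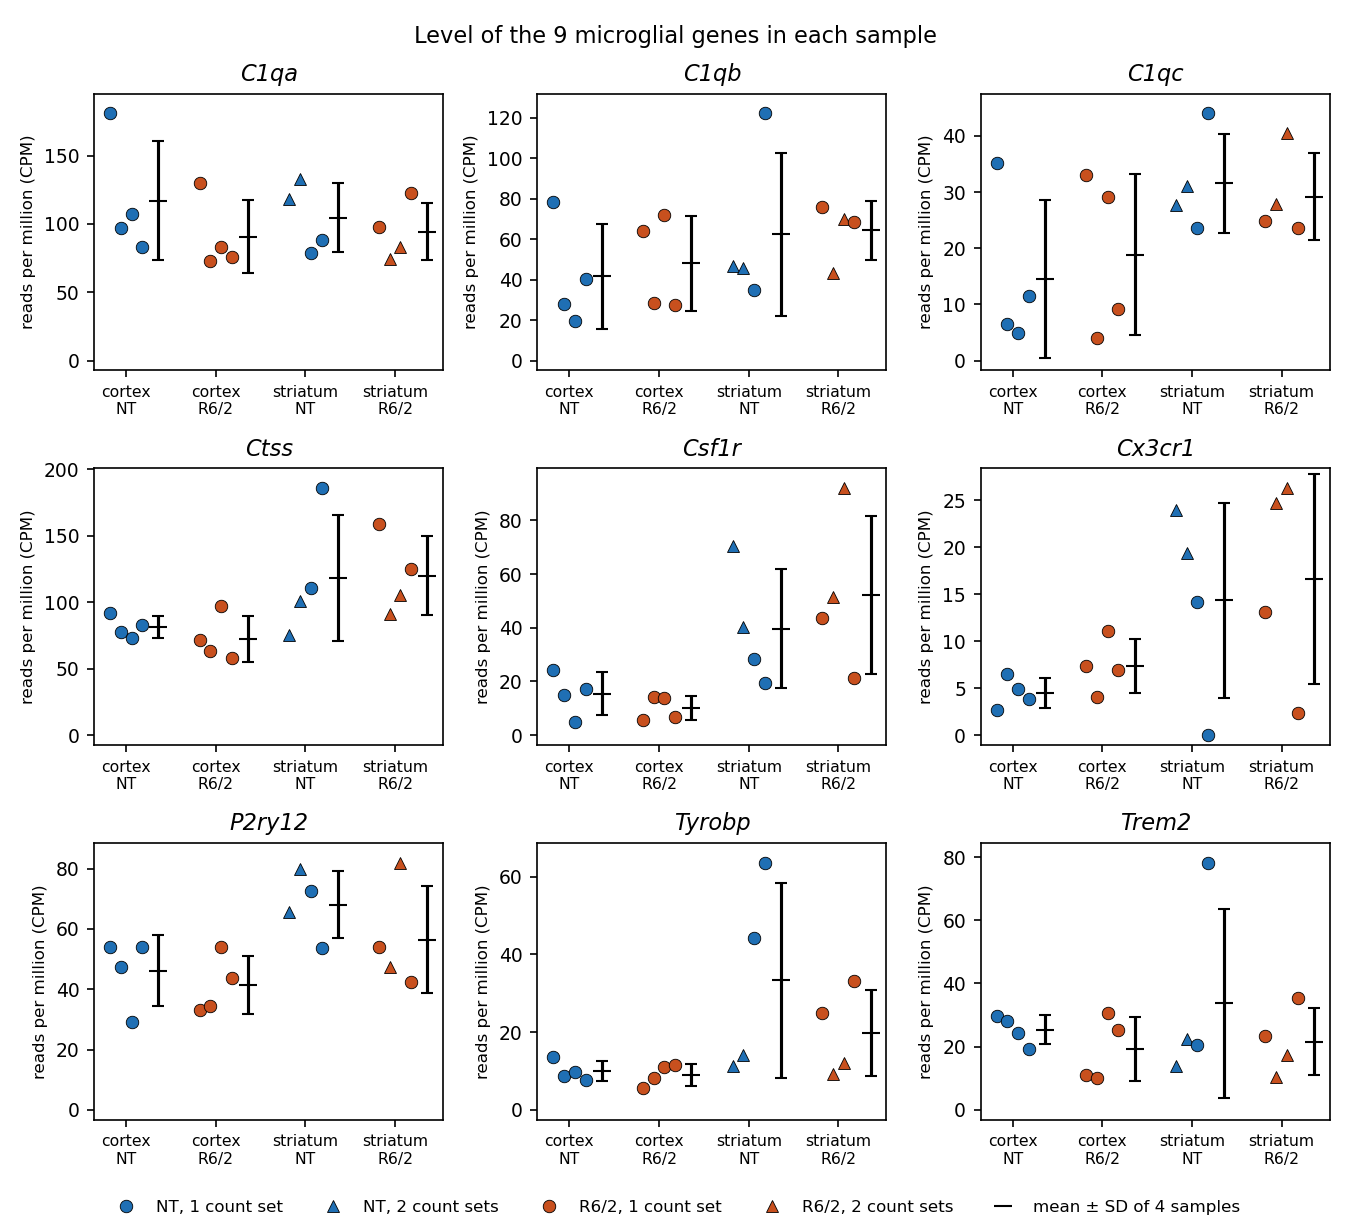
Level of each microglial gene in each of the 16 samples, in TMM-normalised CPM, with 1 panel per gene, the 4 region and genotype groups on the horizontal axis, 1 point per sample and a bar at the group mean. In every panel the R6/2 and NT points of a region overlap, and the Tyrobp panel shows striatum NT 3 and NT 4 at 44.2 and 63.6 CPM, far above the cortical points at 5.502 to 13.5 CPM.

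C1qa, which encodes the A chain of C1q, had the most reads of the 9 genes (983). Its level was 117 ± 43.7 CPM in the NT cortex, 90.7 ± 26.7 CPM in the R6/2 cortex, 105 ± 25.3 CPM in the NT striatum and 94.4 ± 21.2 CPM in the R6/2 striatum. The means ran from R6/2 cortex over R6/2 striatum and NT striatum to NT cortex, and no neighbours in that order differed by more than the larger of their SDs. The 3 chain genes lie side by side on chromosome 4 (GRCm38; C1qb 136880129 to 136886187, C1qc 136889804 to 136893065, C1qa 136895917 to 136898803, all on the minus strand).

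C1qb reached 78.3, 28.1, 19.5 and 40.5 CPM in the NT cortex (NT 1 to NT 4) and 64.2, 28.5, 72.1 and 27.7 CPM in the R6/2 cortex. In the striatum it was at 46.6, 45.8, 34.7 and 122 CPM in NT mice and at 75.9, 43.3, 69.8 and 68.4 CPM in R6/2 mice. Striatum NT 4 stood alone at the top, and the R6/2 values lay inside the NT range in the striatum. C1qc, the gene of the C chain, was at 14.5 ± 14.03 CPM in the NT cortex, 18.9 ± 14.3 CPM in the R6/2 cortex, 31.6 ± 8.82 CPM in the NT striatum and 29.2 ± 7.75 CPM in the R6/2 striatum. Cortex NT 1 held 13 of the 23 C1qc reads of the NT cortex, where the other samples had between 1 and 6. Both cortical means lay below both striatal means for C1qb and for C1qc, but no neighbouring means of either gene differed by more than the larger SD.

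Ctss encodes cathepsin S, a lysosomal cysteine protease of antigen-presenting cells, and lies on chromosome 3 (95526786 to 95556403, plus strand). Ctss reached 91.8, 77.7, 73.2 and 82.9 CPM in the NT cortex and 71.5, 63.0, 97.0 and 57.7 CPM in the R6/2 cortex. In the striatum it was at 75.5, 101, 110 and 186 CPM in NT mice and at 159, 90.8, 105 and 125 CPM in R6/2 mice. The 4 striatal samples of 1 count set (110 to 186 CPM) were all above the 4 of 2 count sets (75.5 to 105 CPM), which lay inside or just above the cortical range. The means ran from 72.3 ± 17.4 CPM in the R6/2 cortex over 81.4 ± 7.998 CPM in the NT cortex and 118 ± 47.5 CPM in the NT striatum to 120 ± 29.6 CPM in the R6/2 striatum, in steps smaller than the larger SD.

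Csf1r encodes the receptor for the cytokines CSF1 and IL-34, on which microglia depend for survival, and lies on chromosome 18 (61100598 to 61132149, plus strand). It was at 24.3, 15.1, 4.88 and 17.4 CPM in the NT cortex and at 5.502, 14.2, 13.9 and 6.92 CPM in the R6/2 cortex. In the striatum it was at 70.5, 40.4, 28.4 and 19.6 CPM in NT mice and at 43.8, 51.6, 92.1 and 21.2 CPM in R6/2 mice. All 4 striatal R6/2 samples were above all 4 cortical R6/2 samples, while the NT ranges of the regions overlapped because striatum NT 4 lay below cortex NT 1. The means were 10.1 ± 4.56 CPM in the R6/2 cortex, 15.4 ± 8.04 CPM in the NT cortex, 39.7 ± 22.2 CPM in the NT striatum and 52.2 ± 29.6 CPM in the R6/2 striatum. Csf1r was the 1 gene of the 9 with a step between neighbouring means, that from NT cortex to NT striatum, above the larger SD.

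Cx3cr1, the fractalkine receptor gene, had the fewest reads of the 9 genes (137). Its level was 4.48 ± 1.60 CPM in the NT cortex and 7.35 ± 2.89 CPM in the R6/2 cortex, on 7 and 17 reads. The striatal values were 23.9, 19.4, 14.2 and 0 CPM in NT mice and 13.1, 24.8, 26.3 and 2.36 CPM in R6/2 mice. In striatum NT 4 no gene read was found, which allows up to 3 counts, or 11.9 CPM before TMM scaling. On the TMM-normalised scale the limit is higher, as 4 Csf1r reads of this sample stood at 19.6 CPM. The lowest striatal NT value was thus not resolved from the cortical ones at this depth. The lowest striatal samples were NT 4 and R6/2 4, both with 1 count set. The striatal means, 14.4 ± 10.4 CPM in NT and 16.6 ± 11.2 CPM in R6/2 mice, followed the R6/2 cortex in the order, with steps below the larger SD.

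P2ry12, a purinergic receptor gene used as a marker of homeostatic microglia, had the most even levels of the receptors. It was at 46.2 ± 11.7 CPM in the NT cortex, 41.4 ± 9.72 CPM in the R6/2 cortex, 68.0 ± 11.1 CPM in the NT striatum and 56.5 ± 17.7 CPM in the R6/2 striatum. The NT striatum exceeded the NT cortex by more than 1 SD of either group, but their ranges (53.8 to 80.0 and 29.3 to 54.0 CPM) met at the edge. The R6/2 striatum stood between these groups, less than the larger SD from each.

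Trem2 encodes the lipid-sensing receptor and lies on chromosome 17 (48346401 to 48354147, plus strand). It was at 29.7, 28.1, 24.4 and 19.3 CPM in the NT cortex and at 11.004, 10.2, 30.5 and 25.4 CPM in the R6/2 cortex. In the striatum it was at 13.8, 22.5, 20.5 and 78.3 CPM in NT mice and at 23.4, 10.3, 17.2 and 35.4 CPM in R6/2 mice. Striatum NT 4 was the only sample above 35.4 CPM, and the other 3 striatal NT samples lay below or within the cortical NT range. The means ran from 19.3 ± 10.2 CPM in the R6/2 cortex over 21.6 ± 10.6 CPM in the R6/2 striatum and 25.4 ± 4.63 CPM in the NT cortex to 33.8 ± 29.9 CPM in the NT striatum, and no neighbours differed beyond the larger SD.

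Tyrobp, whose product carries the signalling motif that TREM2 lacks, lies on chromosome 7 (30413760 to 30417585, plus strand). It was at 13.5, 8.64, 9.76 and 7.71 CPM in the NT cortex and at 5.502, 8.13, 11.1 and 11.5 CPM in the R6/2 cortex. In the striatum it was at 11.3, 13.98, 44.2 and 63.6 CPM in NT mice and at 24.8, 9.28, 12.1 and 33.0 CPM in R6/2 mice. The 4 striatal samples of 1 count set (24.8 to 63.6 CPM) were all above the 4 striatal samples of 2 count sets (9.28 to 13.98 CPM), and the latter overlapped the cortex. The means were 9.06 ± 2.81 CPM in the R6/2 cortex, 9.90 ± 2.54 CPM in the NT cortex, 19.8 ± 11.1 CPM in the R6/2 striatum and 33.3 ± 25.1 CPM in the NT striatum, again with steps below the larger SD.

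R6/2 and NT mice were compared within each region with edgeR's quasi-likelihood test and Benjamini-Hochberg adjustment over all genes tested. In the cortex 5 of the 9 genes passed the filter on low counts (C1qa, C1qb, Ctss, P2ry12 and Trem2) and 0 of these 5 changed, where 3.27% of all 6121 genes tested were called. In the striatum all 9 passed and 0 of 9 changed, where 4.34% of 7658 genes were called. At an unadjusted p under 0.05, 1055 cortical and 1352 striatal genes were found, and no microglial gene was among them, nor among the genes called in any alternative fit. The 9 genes all had overlapping groups in both regions, where 10.1% of the cortical and 6.16% of the striatal genes tested had groups without overlap.

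The sizes that the data allow differed between the genes. Of the 5 genes tested in the cortex, Ctss had the narrowest 95% interval, with a log2 fold change of -0.14 (SE 0.22) and an interval of -0.59 to 0.31. C1qb had the second widest of these, with a log2 fold change of 0.23 (SE 0.36) and an interval of -0.53 to 0.99. The 4 genes below the filter had wider intervals, taken from a fit over all genes with a read, of which Cx3cr1 spanned -0.54 to 2.12. A change of 2-fold in either direction lay outside the cortical intervals of C1qa, C1qb, Ctss and P2ry12, and a 2-fold decrease lay inside that of Trem2 (-1.10 to 0.44).

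In the striatum the difference nearest to the threshold was that of Tyrobp, at -0.59 on the log2 scale (SE 0.28, 95% interval -1.19 to 0.012, adjusted p = 0.29 by edgeR). Its difference was -0.83 (adjusted p = 0.54) among the samples of 1 count set and -0.28 (adjusted p = 0.82) among those of 2 count sets. The log2 fold changes of the other 8 genes lay between -0.46 (Trem2, SE 0.39, interval -1.30 to 0.38) and 0.39 (Csf1r, SE 0.29, interval -0.23 to 1.02). C1qa had -0.23 (SE 0.22, interval -0.70 to 0.24), Ctss 0.078 (SE 0.19, interval -0.33 to 0.49) and P2ry12 -0.29 (SE 0.22, interval -0.77 to 0.18). The median over the 9 genes was 0.016, beside -0.0022 over all genes tested.

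**Figure D2:**
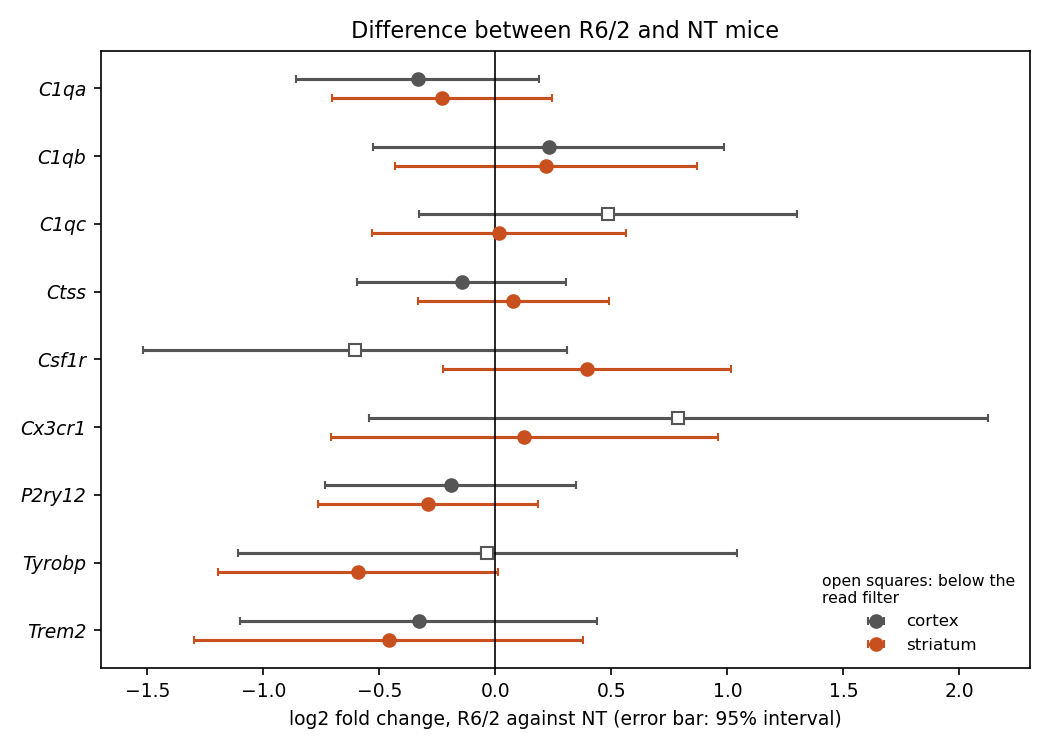
Log2 fold change of R6/2 against NT for each microglial gene in the cortex and the striatum, with 95% intervals as bars and genes below the cortical filter drawn as open symbols. Every interval includes 0, and the striatal interval of Tyrobp (-1.19 to 0.012) comes nearest to excluding it.

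The striatum was compared with the cortex within each genotype in 1 fit over the 16 samples. The number of count sets was a term, so that the comparison is made at 1 count set. Isoforms averaged 1851 to 2100 nt in the cortex, 1618 to 1885 nt in 1-set and 2141 to 2225 nt in 2-set striatal samples. Mitochondrial genes took 0.331% to 0.575%, 1.41% to 3.27% and 0.408% to 0.851% of gene reads in the same order. Incomplete splice matches took 17.1% to 20.9%, 15.6% to 20.1% and 11.95% to 13.8%. The part of these library differences in the regional calls was not tested. In NT mice 2 of the 8 genes tested were higher in the striatum (Tyrobp and Ctss) and 0 were lower, where 15.8% of all 7390 genes tested were higher and 17.6% lower, 33.4% in all. In R6/2 mice 3 of 8 were higher (Tyrobp, Ctss and Csf1r) and 0 lower, where 12.9% of all genes were higher and 14.3% lower, 27.3% in all. With 8 genes tested, counts of 2 and 3 are near these backgrounds and are no result about the genes as a group. Cx3cr1 did not pass the filter in this fit.

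Tyrobp was 4.72-fold higher in the NT striatum (log2 fold change 2.24, SE 0.38, adjusted p = 8.0e-05) and 3.36-fold higher in the R6/2 striatum (log2 fold change 1.75, SE 0.36, adjusted p = 9.9e-04). Ctss was 1.66-fold higher in NT mice (log2 fold change 0.73, SE 0.23, adjusted p = 0.018) and 1.98-fold higher in R6/2 mice (log2 fold change 0.98, SE 0.22, adjusted p = 0.0017). Csf1r was 3.24-fold higher in R6/2 mice (log2 fold change 1.69, SE 0.42, adjusted p = 0.0046), and in NT mice its log2 fold change was 0.62 (SE 0.44, adjusted p = 0.29). The median log2 fold change over the genes tested was 0.62 in NT mice and 0.54 in R6/2 mice, beside medians of -0.11 and -0.096 over all genes, so that differences relative to the bulk of genes are larger by that amount.

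These regional calls depended on which striatal samples entered. With the 2-set striatal samples alone, Tyrobp differed from the cortex by 0.52 (adjusted p = 0.69) in NT mice and by 0.28 (adjusted p = 0.85) in R6/2 mice, and Ctss by 0.17 (adjusted p = 0.67) and 0.44 (adjusted p = 0.17). Csf1r moved the other way, to 1.74 (adjusted p = 0.0034) in NT mice and 2.79 (adjusted p = 3.5e-05) in R6/2 mice. Cx3cr1 was then also higher in the striatum, by 2.25 (adjusted p = 0.0023) and 1.74 (adjusted p = 0.0034). Fitted without the term for count sets, Tyrobp differed by 1.5 (adjusted p = 0.099) in NT and 0.997 (adjusted p = 0.30) in R6/2 mice, and Ctss by 0.46 (adjusted p = 0.26) and 0.71 (adjusted p = 0.083). Without the term, the 1 gene with a call in NT mice was Cx3cr1 (2.02, adjusted p = 0.010). It did not pass the filter, and its value is from a fit over all genes with a read. The 1 gene called in R6/2 mice was Csf1r (2.36, adjusted p = 0.0032). With the 1-set striatal samples alone the calls were those of the whole fit for all 3 genes. Csf1r in R6/2 mice was the 1 gene whose regional groups did not overlap (1 of 9, where 21.2% of the genes tested had no overlap), and in NT mice there was none (0 of 9, where 16.2% had none).

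Leaving out single samples ended 2 of these calls. Without striatum NT 4 the Ctss difference in NT mice was 0.53 (adjusted p = 0.11), and without striatum R6/2 1 the Csf1r difference in R6/2 mice was 1.38 (adjusted p = 0.055). Trem2 in NT mice gained a call without striatum NT 3 (1.28, adjusted p = 0.047), as did C1qc in NT mice without cortex NT 1 (1.84, adjusted p = 0.025). Counted over complete reads only, Ctss differed by 0.34 (adjusted p = 0.28) in NT mice.

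**Figure D3:**
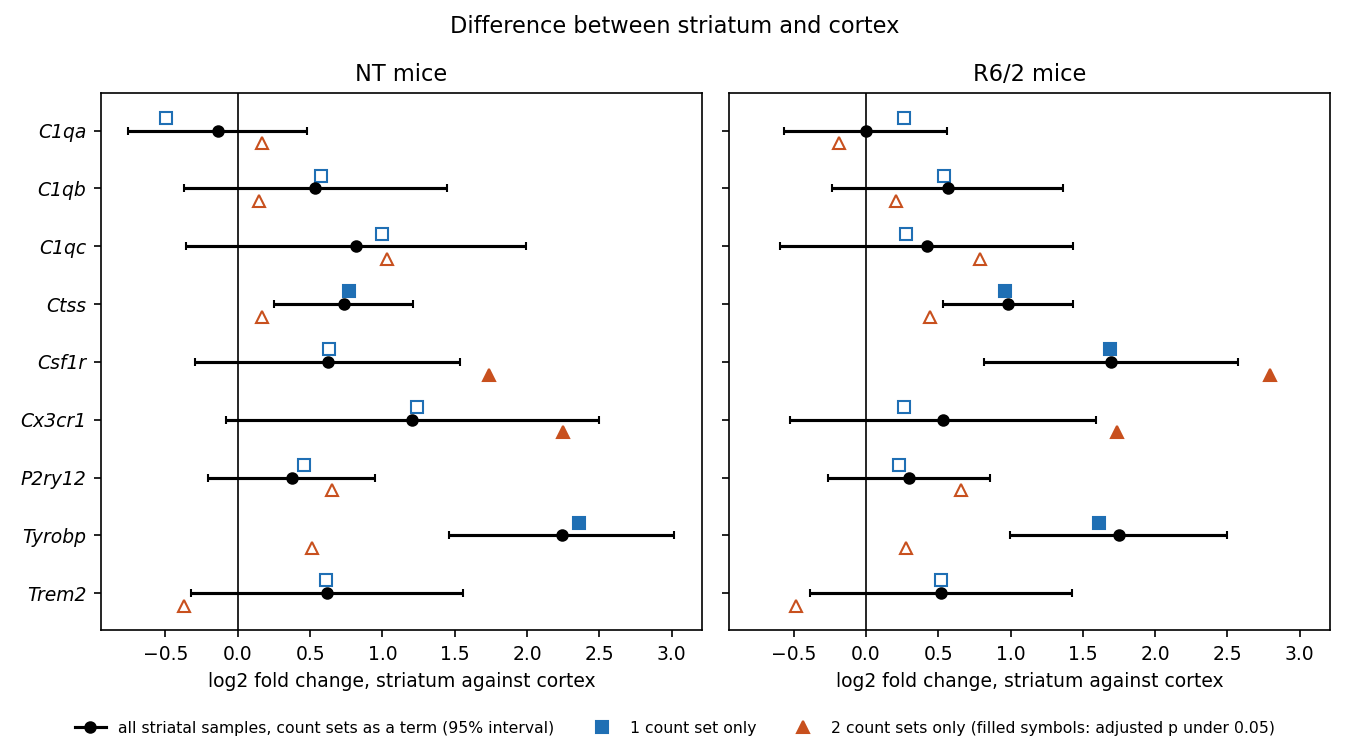
Log2 fold change of striatum against cortex for each microglial gene in NT and R6/2 mice, fitted over all samples and with striatal samples of 1 or of 2 count sets alone. Tyrobp falls from 2.24 in the NT fit over all samples to 0.52 with the 2-set samples, while Csf1r goes from 0.62 to 1.74.

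The difference of the genotype effect between the regions was tested as an interaction over the 16 samples. None of the 8 genes tested passed (0 of 8), where 0.0406% of the 7390 genes did (3 genes, and 430 at an unadjusted p under 0.05). The largest was that of Csf1r, whose R6/2 difference was 1.07 higher in the striatum than in the cortex on the log2 scale (SE 0.56, interval -0.082 to 2.22, adjusted p = 0.86). The Csf1r call in R6/2 mice and its absence in NT mice were thus not shown to differ.

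Because the striatal samples split by their number of count sets, those of 2 sets were compared with those of 1 set, with genotype in the model. This comparison was chosen after the values were seen. Of the 9 genes, 3 were lower in the samples of 2 sets and 1 was higher, where 19.1% of 7658 genes were lower and 11.2% higher, 30.4% in all (1465 lower and 860 higher, and 1305 and 1303 with upper-quartile scaling). Tyrobp was 3.62-fold lower (log2 fold change -1.86, SE 0.28, adjusted p = 2.6e-04), Trem2 2.30-fold lower (-1.20, SE 0.39, adjusted p = 0.034) and Ctss 1.69-fold lower (-0.76, SE 0.19, adjusted p = 0.0095). Csf1r was 1.88-fold higher (0.91, SE 0.30, adjusted p = 0.037). Cx3cr1 had a log2 fold change of 1.14 (SE 0.43) and an adjusted p of 0.063, and without striatum NT 3 it was 1.62 (adjusted p = 0.038), as C1qb then was -0.87 (adjusted p = 0.025).

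Leaving out single samples ended the calls of Csf1r and Trem2 but not those of Tyrobp and Ctss. Csf1r was at 0.70 to 0.98 without NT 1, NT 3, NT 4, R6/2 3 or R6/2 4 (adjusted p = 0.058 to 0.13). Trem2 was at -0.84 without NT 4 and at -1.07 to -1.11 without NT 1, R6/2 2 or R6/2 4 (adjusted p = 0.065 to 0.11). Over complete reads alone the differences were -2.08 for Tyrobp (adjusted p = 1.9e-04) and -1.19 for Trem2 (adjusted p = 0.042), while Ctss (-0.40, adjusted p = 0.12) and Csf1r (0.90, adjusted p = 0.068) were not called. With the first count set of each sample only, Tyrobp (-2.88, adjusted p = 3.3e-04) and Trem2 (-1.11, adjusted p = 0.025) were called, and Ctss (-0.47, adjusted p = 0.10) and Csf1r (0.83, adjusted p = 0.13) were not. Csf1r was at 0.34 (adjusted p = 0.31) with genomic reads added. Cx3cr1 gained a call with upper-quartile scaling (1.23, adjusted p = 0.041) and with all genes tested (1.21, adjusted p = 0.016).

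The 2 kinds of striatal samples did not overlap for Tyrobp and Ctss, lower with 2 sets, and for Cx3cr1, higher with 2 sets (3 of 9, where 33.2% of the genes tested had no overlap). Over all genes the difference followed the length of a gene's complete isoforms. Its median was -1.58 over 701 genes with a mean length of up to 1000 nt, -0.17 over 2185 genes of 1000 to 2000 nt and 0.26 over 2379 genes of 2000 to 3000 nt. It was 0.30 over 1513 genes of 3000 to 4000 nt and 0.23 over 875 longer genes. Tyrobp is the shortest of the 9 genes (597 nt), and Cx3cr1 (3741 nt) and Csf1r (4617 nt) are the longest. C1qa, C1qb, C1qc, Trem2 and Ctss lie between 1041 and 1351 nt. Within their length classes, 35.1% of genes lay below Tyrobp, 17.1% below Ctss and 7.32% below Trem2. For Csf1r it was 94.9% and for Cx3cr1 97.6%. The part of length in the differences of single genes was not tested.

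The regional comparison also followed length. Genes of up to 1000 nt had median log2 fold changes of 1.20 (NT) and 0.89 (R6/2), against -0.27 and -0.23 for genes over 4000 nt. Within the shortest class, 90.9% of genes lay below Tyrobp in NT mice and 88.7% in R6/2 mice. Within the longest class, 84.0% lay below Csf1r in NT mice and 97.5% in R6/2 mice. In the class of 1000 to 2000 nt, 84.1% lay below Ctss in NT mice and 92.9% in R6/2 mice. The part of the length difference in the regional calls was not tested. P2ry12 is placed at 752 nt because most of its reads were assigned to a short annotated transcript, and its length class is uncertain for that reason.

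**Figure D4:**
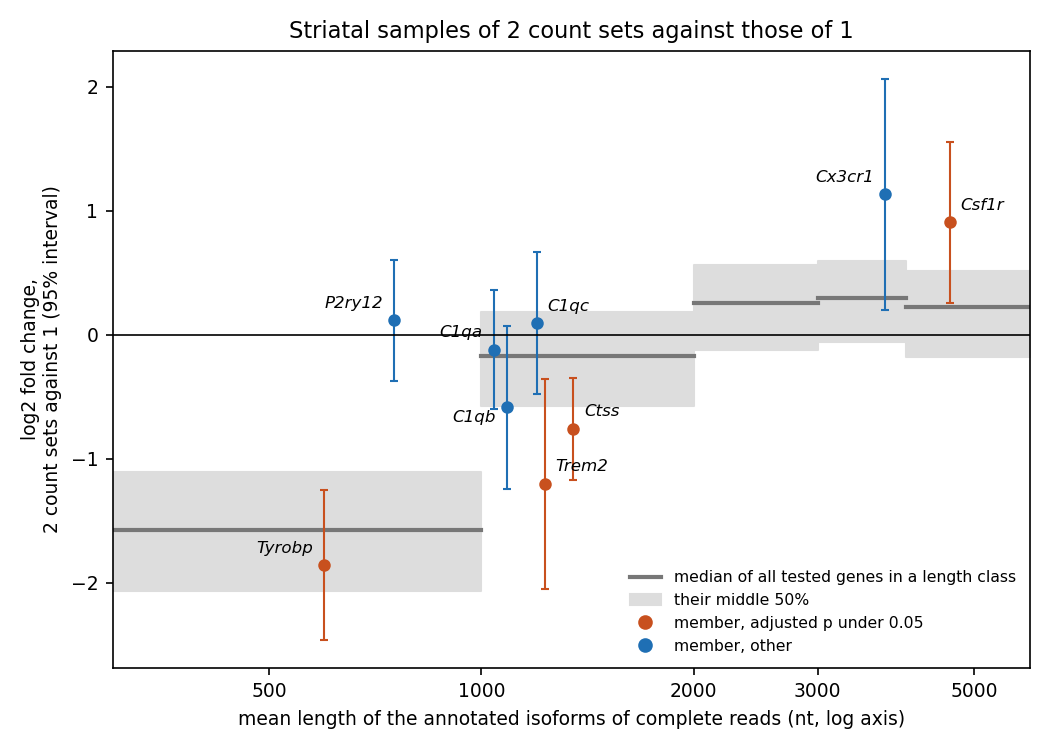
Log2 fold change of striatal samples of 2 count sets against samples of 1 set (vertical axis) by the mean length of a gene's complete isoforms in nt (horizontal log axis), with the medians of the length classes over all genes as lines and the 9 microglial genes as named points. The class median goes from -1.58 at up to 1000 nt to 0.30 at 3000 to 4000 nt, with Tyrobp at -1.86 at one end and Cx3cr1 at 1.14 and Csf1r at 0.91 at the other.

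Within the 4 samples that have them, the 2 count sets differed from each other by more than sampling noise, with a chi-square per gene of 2.50 to 3.24 where noise alone gives about 1. C1qa, Cx3cr1 and Tyrobp were higher in the second set in 4 of 4 samples, where 14.3% of 7658 genes were, and Ctss was lower in 4 of 4, where 9.91% were. With 9 members these counts are a description and no result about the genes as a group. In striatum NT 2, for example, Tyrobp had 1 read in the first set and 17 in the second, while Ctss had 77 and 53.

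Reads were next divided by how fully they matched an isoform. Complete reads (known isoforms, and unannotated ones that are not incomplete matches) made up 99.8% of P2ry12 gene reads, 98.1% of Tyrobp, 96.0% of C1qc, 95.7% of C1qb and 94.3% of Trem2. For P2ry12 this share does not measure completeness. Most of its reads were assigned to a transcript of 2 exons, whose splice junction the longer transcripts share. A partial read of a longer transcript can thus count as known. The share was lower for C1qa (86.6%, 95% Wilson interval 84.3% to 88.6%), Ctss (84.7%, 82.2% to 86.8%), Cx3cr1 (78.1%, 70.5% to 84.2%) and Csf1r (68.0%, 63.0% to 72.6%). The intervals cover counting error only. Csf1r, whose main isoform has 21 exons and 4701 nt, had 21 different incomplete isoforms, 18 of them suffixes that keep the 3′ end.

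**Figure D5:**
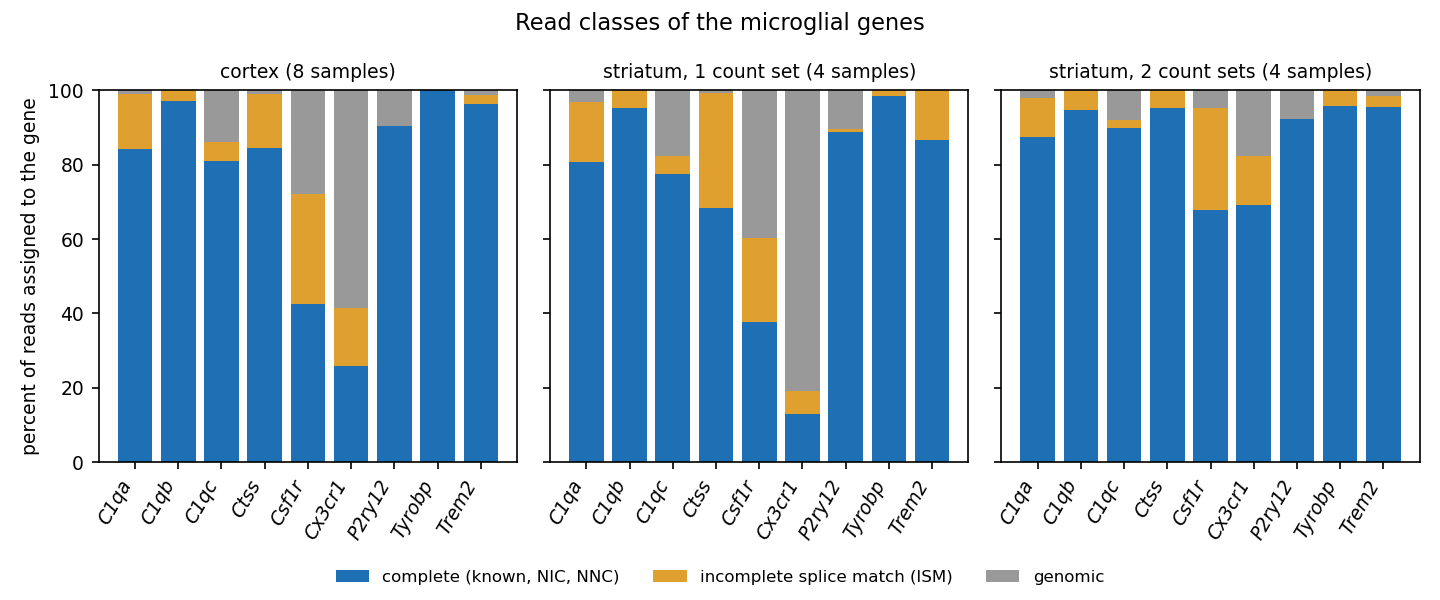
Share of each microglial gene's reads that were complete, incomplete splice matches (ISM) or of the genomic class, in percent, for the cortex and for the striatal samples of 2 and of 1 count sets. Cx3cr1 stands apart, with 81.0% genomic reads in the striatal samples of 1 set and 17.5% in those of 2 sets, and Ctss has 31.1% ISM reads of its gene reads with 1 set and 4.71% with 2 sets. A single entry holds 69 of the 81 genomic Cx3cr1 reads with 1 set.

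For Ctss the incomplete reads came chiefly from 1 form, a prefix of 2 exons and 264 nt that keeps the 5′ end (106 of 945 gene reads, and 109 with other prefixes of 2 exons, 11.5%). Per sample these prefixes made up 3.33%, 0%, 21.4% and 50% of Ctss reads in the striatum of NT 1 to NT 4 and 21.1%, 3.41%, 5.77% and 15.1% in that of R6/2 1 to R6/2 4. All 4 striatal samples of 1 set were higher than all 4 of 2 sets. Complete reads were accordingly 95.3% of Ctss reads in the samples of 2 sets and 68.9% in those of 1 set.

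Cx3cr1 had nearly as many reads of the genomic class (135), which overlap the gene without matching its splice junctions, as gene reads (137). The annotated Cx3cr1 locus on chromosome 9 (119901616 to 120069879, minus strand) is long and overlaps Gorasp1, Csrnp1 and Xirp1 on the same strand and Wdr48 and Ttc21a on the opposite strand. Genomic reads numbered 5, 1, 28 and 19 in the striatum of NT 1 to NT 4 and 19, 5, 9 and 15 in that of R6/2 1 to R6/2 4, so that the samples of 1 set had more in each genotype although they are shallower. A single genomic entry of 597 nt held 69 of the 81 genomic reads of the 1-set samples. It had 0 reads in the 2-set samples and 0 in the cortex. The split was not tested without this entry. When genomic reads were added to the gene counts, the Cx3cr1 difference between 2 sets and 1 set turned from 1.14 to -0.89 (adjusted p = 0.021), and the regional difference became 2.09 in NT mice (adjusted p = 1.8e-04) and 1.55 in R6/2 mice (adjusted p = 0.0016). Csf1r showed the same split on a smaller scale, with 39.6% of its reads genomic in the samples of 1 set and 4.60% in those of 2 sets, and with genomic reads added its regional difference in NT mice was 1.16 (adjusted p = 0.0096). Csf1r overlaps Hmgxb3 and P2ry12 overlaps Med12l, both on the opposite strand.

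The share of complete reads was compared between R6/2 and NT mice by two-sided exact permutation tests for the 11 combinations of gene and region with at least 5 reads in every sample. None of the 11 had an unadjusted p under 0.05, where the smallest p that 4 against 4 samples allow is 0.029. After adjustment over the 11 tests, a single test at that p could not pass. P2ry12 was at 100% in every cortical sample and had 1 incomplete read in the striatum, so its 2 tests could not show a difference. The smallest p was that of C1qb in the striatum, where the share averaged 91.6% ± 2.83 in NT samples and 97.2% ± 2.92 in R6/2 samples (SD over 4 samples each; exact permutation p = 0.057, adjusted p = 0.47). The means differed most for Ctss in the cortex, at 90.6% ± 7.36 in NT and 82.0% ± 2.11 in R6/2 samples (exact permutation p = 0.086, adjusted p = 0.47).

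Most members were read as 1 isoform. A single annotated isoform took 85.4% of C1qa, 95.5% of C1qb, 92.3% of C1qc, 94.8% of Tyrobp and 76.6% of Cx3cr1 gene reads. For P2ry12, 512 of 563 reads (90.9%) were assigned to ENSMUST00000199675, an annotated transcript of 2 exons whose second exon (chromosome 3, 59217905 to 59218256, GRCm38, minus strand) holds 352 bases and stops inside the coding sequence, where the other transcripts of the gene carry between 1896 and 1985 bases from the same splice site. Assignment is by splice junctions, so the annotated length of 619 nt need not be that of the molecules read.

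Ctss and Trem2 are the members with more than 1 well-supported annotated splice form, and their alternative acceptor sites are shown because each changes the coding sequence. Both pairs are taken from the reference sequence with GENCODE M21 exons (GRCm38, plus strand), with the last 20 bases of the exon before and the first bases of the exon that differs. Capitals mark the bases found only in the longer form. In Ctss the exon before ends at 95526925 of chromosome 3 and exon 2 runs from 95529437, or from 95529434 in the longer form, to 95529560. In Trem2 the exon before ends at 48351191 of chromosome 17 and exon 4 runs from 48351746, or from 48351691 in the longer form, to 48351930.
Ctss ENSMUST00000116304: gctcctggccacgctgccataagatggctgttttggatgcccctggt
Ctss ENSMUST00000015667: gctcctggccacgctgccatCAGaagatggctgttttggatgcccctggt
Trem2 ENSMUST00000024791: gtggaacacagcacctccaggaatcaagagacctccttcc
Trem2 ENSMUST00000113237: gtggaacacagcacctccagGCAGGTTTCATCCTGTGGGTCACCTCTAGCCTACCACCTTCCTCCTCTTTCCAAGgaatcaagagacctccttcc

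The Ctss forms differ by 3 bases at the start of exon 2, and their coding sequences have 1020 and 1023 bases without the stop codon, so the reading frame is kept. The longer form took 52 of the 784 reads of both forms (6.63%, Wilson interval 5.09% to 8.59%). Its share was 5.27% ± 3.60 in the NT cortex, 7.97% ± 1.83 in the R6/2 cortex, 7.14% ± 2.13 in the NT striatum and 7.51% ± 5.66 in the R6/2 striatum (SD, n = 4). The genotypes of a region differed by less than the larger of their SDs.

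The Trem2 forms differ by 55 bases at the start of exon 4, and their coding sequences have 681 and 747 bases, and 55 is not a multiple of 3, so the frame is changed after this site. The longer form took 18 of 186 reads (9.68%, Wilson interval 6.21% to 14.8%). It had 2 reads in the NT cortex, 5 in the R6/2 cortex, 6 in the NT striatum and 5 in the R6/2 striatum, beside 32, 35, 55 and 46 reads of the shorter form. A further annotated form of 4 exons, ENSMUST00000132340, had 8 reads.

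Isoform usage was tested between R6/2 and NT mice with edgeR over isoforms of at least 10 reads. Ctss was tested in both regions and Trem2 in the striatum, and none of these was called (0 of 1 in the cortex, where 0.359% of 3060 genes were, and 0 of 2 in the striatum, where 0.45% of 4443 genes were). The adjusted p of Ctss was 1.0 in both regions, as was that of Trem2.

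Other genes of microglia were taken from a list of 30 homeostatic genes that includes Tmem119, Selplg and Laptm5. Of these, 0 of 4 tested changed in the R6/2 cortex and 0 of 11 in the R6/2 striatum. Over all genes tested, 3.27% and 4.34% were called. In NT mice 3 of 10 were higher in the striatum, namely Selplg (the P-selectin ligand gene, log2 fold change 2.19), Fcer1g (the Fc receptor gamma chain, a signalling adaptor like TYROBP, 1.90) and Laptm5 (a lysosomal membrane protein, 1.49). In R6/2 mice Fcer1g was higher (2.22) and the other 9 were not called. Of all genes tested, 15.8% were higher in NT and 12.9% in R6/2 mice, so these counts are no result about the list. Between striatal samples of 2 sets and of 1 set, Fcer1g (-1.66) and Aif1 (-1.63), which encodes the marker Iba1, were lower and Tmem119 (0.93) was higher. These were 2 lower and 1 higher of 11 tested, beside 19.1% and 11.2% of all genes.

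Of 24 genes that mark damage-associated microglia, 2 of 12 tested fell in the R6/2 cortex and 0 of 13 changed in the R6/2 striatum. The 2 genes of the list that fell were Apoe (1.85-fold lower, adjusted p = 0.0096) and Lpl (3.22-fold lower, adjusted p = 0.015), which encode a lipid carrier and a lipoprotein lipase that other brain cells also make. Several defining genes of this state were at or near 0 over all 16 samples: Cst7, Itgax and Cybb had no read, and Clec7a and Gpnmb had 3 reads each. The list as a whole was not absent. Of the 24 genes, 21 had reads, among them Cd9 (1056 reads), Cd63 (772), Spp1 (150) and Axl (111). Astrocytes are the main source of Apoe in the healthy brain, and 2 of 9 astrocyte genes tested (Aldoc and Glul) also fell in the R6/2 cortex; the part of astrocytes in the Apoe change was not tested.

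Of the complement list of 22 genes, 2 passed the filter in the cortex and 4 in the striatum. Cd59a, which encodes an inhibitor of the membrane attack complex, was 2.36-fold lower in the R6/2 striatum (log2 fold change -1.24, SE 0.24, adjusted p = 0.00995), and the other genes tested were not called in either region. The components that follow C1q were close to absent from these reads, with 11 reads of C1ra, 2 of C1s1, 17 of C2, 54 of C4b and 3 of C3 over 16 samples over which the C1q chains had 983 (C1qa), 515 (C1qb) and 248 (C1qc) reads.

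Ligands and partners of the receptors formed a list of 15 genes. Apoe, a ligand of TREM2, was the 1 of 6 tested that fell in the R6/2 cortex, and 0 of 7 changed in the R6/2 striatum. Over all genes tested, 3.27% and 4.34% were called. Cx3cl1, which encodes fractalkine, was 7.33-fold higher in the NT striatum than in the cortex (adjusted p = 1.3e-07) and 4.80-fold higher in R6/2 mice (adjusted p = 3.8e-06). Il34, which encodes the neuronal ligand of CSF1R, was 1.62-fold lower in the NT striatum (adjusted p = 0.016) and 1.70-fold lower in R6/2 mice (adjusted p = 0.0078). Cst3, which encodes cystatin C, an inhibitor of cathepsin S, was 2.16-fold higher in the NT striatum (adjusted p = 1.2e-04) and 1.81-fold higher in R6/2 mice (adjusted p = 0.0023). Cst3 was also 2.41-fold lower in striatal samples of 2 count sets than in those of 1 set (adjusted p = 2.3e-04), and the regional groups overlapped, with lowest levels of 3407 and 3296 CPM in the NT and R6/2 striatum and of 3708 and 3297 CPM in the cortex.

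Other macrophages and blood could also carry some of these genes. A list of 9 perivascular macrophage genes gave 3.09 to 19.5 CPM in all per sample, with Lyve1 at 0 reads in all 16 samples and Mrc1 at 14, and none of the 9 passed the filter in a comparison. Blood genes, mostly the haemoglobins, summed to at most 60.5 CPM in the NT cortex and to between 6.10 and 1045 CPM in the R6/2 cortex, and to at most 107 CPM in the NT and 603 CPM in the R6/2 striatum. Monocyte and lymphocyte genes in that list were nearly absent (Ccr2, S100a9 and Cd3e at 0 reads, Ly6c2 at 1). The part of blood and of perivascular cells in the microglial levels was not tested.

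Genes of neurons and oligodendrocytes changed with the groups. In the R6/2 striatum 9 of 12 striatal projection neuron genes and 4 of 10 oligodendrocyte genes fell, where 4.34% of all genes tested were called. Oligodendrocyte genes were higher in the striatum than in the cortex in 9 of 10 cases in NT mice and 10 of 10 in R6/2 mice. Of all genes tested, 15.8% and 12.9% were higher. Whether the composition of the tissue contributed to the regional calls of Tyrobp, Ctss and Csf1r was not tested.

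The level of the 9 genes together was compared with that of 7019 genes with a mean of at least 10 reads, by Pearson's correlation of log2 CPM over the 16 samples. The samples share regions and libraries, so this is a description and no test. The closest genes were Ipo13 (r = 0.91), Rnf166 (0.89), Snx3 (0.88), Ube2d1 and Gstm7 (both 0.87), where the 95th percentile of all genes was 0.68. With the mean of each group and number of count sets removed, they were 0610010K14Rik (0.89), Gpr62, Ipo13 and Pak6 (each 0.88) and Eif5a (0.87). The closest gene of the homeostatic list was Selplg (r = 0.83, rank 35), followed by Laptm5 (r = 0.63, rank 503). Of the 7 members that reached this mean, C1qc followed the common level most closely (r = 0.87) and C1qa least (r = 0.20), each being part of it, and Cx3cr1 and Tyrobp had too few reads to be compared. Among the 36 pairs of members the median r was 0.34, with 27 positive.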

How the data were processed

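Per the methods of the study, full-length consensus reads ending in poly(A) were aligned to mm10 with minimap2 (2.17-r941, from the submitters' processing notes), cleaned with TranscriptClean and given to isoforms by TALON. The values the authors deposited are counts: reads per isoform and library, before TALON's transcript filter and without normalization. There were 20 tables for 16 samples, and no value column belonged to no sample. What distinguishes the 2 count sets of 4 striatal samples is not given in the sources used here beyond the word replicates, so they were summed and their number entered the striatal and 16-sample fits as a term. Per the study's text the 4 samples of a group were part of those from its short-read mice. The labels do not say which animal gave which sample, nor whether cortical and striatal samples share animals.

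Gene counts summed known, ISM, NIC and NNC isoforms of annotated genes, without genomic, antisense and intergenic classes. Genes were tested with edgeR 4.0.16 (R 4.3.3, limma 3.58.1; TMM, filterByExpr, quasi-likelihood test, Benjamini-Hochberg adjustment, threshold 0.05) and isoform usage with diffSpliceDGE, which were tested on simulated data. Intervals use the test's degrees of freedom. CPM were computed here. Alternatives were DESeq2 1.42.0, upper-quartile scaling, other filters, other read classes, other treatments of count sets, a replicate block and leaving out single samples. Exact tests and Wilson intervals used scipy 1.17.1 (Python 3.11.15, numpy 2.4.6, pandas 2.3.3, matplotlib 3.10.9). Every member is named, and of other lists the genes with the smallest p among those called, plus, chosen after their values were seen, genes whose reads were few or absent. The comparison of 2 with 1 count sets and the fits on 1-set or 2-set striatal samples were chosen after seeing the data. The members and gene lists were chosen with earlier results of these data known. Exons come from GENCODE M21 (GRCm38).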

Additional observations from a re-analysis of the deposited data

Results flagged for a closer look

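Within each group of 4 samples, the highest and lowest level of each of the 9 genes was set against the others (36 groups), and 2 values stood far from the rest of their group. Both belonged to the shallowest striatal sample, NT 4. C1qb was at 122 CPM there and at 34.7 to 46.6 CPM in the other 3 striatal NT samples, a gap of 0.864 of the whole range. Trem2 was at 78.3 CPM there and at 13.8 to 22.5 CPM in the others, a gap of 0.865 of the range. Chance alone marks about 1 in 20 such groups. Without this sample no microglial gene differed between R6/2 and NT mice in the striatum either.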

How the results depend on the processing

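R6/2 against NT gave 0 microglial genes in both regions under every alternative. Of 1171 alternative values of single genes, 1046 kept direction and side of the threshold, 84 changed sign, 28 lost and 13 gained a call. The causes were not tested. The counts over all genes were less steady. In the cortex 200 genes became 95 with complete reads only, and 95 to 305 without single samples. In the striatum 332 became 606 with all genes tested, 181 with first count sets only, 39 without the term for count sets, 55 with samples of 1 set and 34 with samples of 2 sets, and 143 to 391 without single samples. NT regional calls (2467) became 1101 without the term and 1559 with 2-set samples, and R6/2 regional calls (2014) became 840 without the term. With DESeq2 they split into 1297 higher and 999 lower in NT and 1096 and 811 in R6/2 mice (1165 and 1302, and 956 and 1058, with edgeR). The interaction (3) became 7 with DESeq2, 8 with all genes, 1 with complete reads or without the term, 0 with samples of 1 set (517 at an unadjusted p under 0.05) and 0 with samples of 2 sets (326), and 1 to 3 without single samples. Isoform usage (11 in the cortex, 20 in the striatum) became 7 and 7 with known isoforms only and 28 and 74 with the gene-level F test, and in the striatum 11 with ISM added and 3 without the term. Without single samples it was 1 to 15 in the cortex and 5 to 26 in the striatum.

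Sample numbers are shared between groups. The correlations of deviations from the group means lay between -0.57 and 0.62, with both signs in each pair of groups. These deviations still hold the split by count sets. Striatal NT and R6/2 samples correlated positively for numbers 2 and 4, where both have the same number of count sets. They correlated negatively for numbers 1 and 3, where they do not. The correlations therefore cannot decide whether shared numbers pair the samples. With the replicate block the calls were 205 (cortex), 185 (striatum), 1966 (NT regions), 1521 (R6/2 regions), 1 (interaction), 718 (count sets, from 2325), and 8 and 20 for usage. Under the block, sign changes were C1qc in the striatum (-0.042), C1qa between count sets (0.0093) and regions in R6/2 mice (0.040), and C1qb in the interaction (-0.13). Ctss (-0.73), Csf1r (1.02) and Trem2 (-0.63) then lost their calls between count sets.

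The other sign changes were also of differences that were not called, and of their new values that of Cx3cr1 between count sets with genomic reads (-0.89) was called. In R6/2 against NT they were Csf1r in the cortex with complete reads (0.049), and in the striatum Cx3cr1 with genomic reads (-0.13), first sets (-0.35) and 1-set samples (-0.19), C1qc with complete reads (-0.079), first sets (-0.11), without the term (-0.030) and 1-set samples (-0.30), and C1qa with 1-set samples (0.41). Between count sets they were C1qa with genomic reads (0.022) and, with complete reads, C1qc (-0.041) and P2ry12 (-0.053). Between regions C1qa in R6/2 mice was 0.041 with upper-quartile scaling, genomic reads or no term, 0.035 with complete reads, 0.12 with DESeq2, 0.18 with all genes, 0.055 at a mean of 20 reads, 0.22 with first sets and 0.27 with 1-set samples. In NT mice it was 0.087 with all genes and 0.17 with 2-set samples. Trem2 was -0.37 (NT) and -0.49 (R6/2) with 2-set samples. In the interaction C1qb was -0.033 with DESeq2, -0.032 with first sets, -0.0086 with all genes and -0.037 with 1-set samples, and with 2-set samples C1qa was -0.35 and P2ry12 0.0042.

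Leaving out single samples changed signs within these ranges: in R6/2 against NT, C1qb -0.049 to 0.67 and Tyrobp -0.21 to 0.14 (cortex), C1qb -0.051 to 0.53, C1qc -0.19 to 0.14, Ctss -0.031 to 0.21 and Cx3cr1 -0.0051 to 0.37 (striatum). Between count sets they were C1qa -0.31 to 0.045, C1qc -0.064 to 0.24 and P2ry12 -0.062 to 0.26, and between regions C1qa -0.30 to 0.39 (NT) and -0.25 to 0.21 (R6/2) and Cx3cr1 -0.0026 to 0.72 (R6/2). In the interaction they were C1qa -0.19 to 0.36, C1qb -0.42 to 0.32, P2ry12 -0.32 to 0.11 and Trem2 -0.50 to 0.29. Depth was low in the cortex for Cx3cr1 (7 reads in NT and 17 in R6/2 mice), Tyrobp (15 and 20), Csf1r (26 and 23) and C1qc (23 and 45).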
